A study of Rattus norvegicus with 8 samples.

Results

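The CCN genes encode a small family of secreted matricellular proteins, and 5 of them, *Wisp1*, *Wisp2*, *Ctgf*, *Cyr61* and *Nov*, were measured in rat calvarial osteoblast-like cells after Er:YAG laser irradiation. They were found as the rat probes whose gene name on the array is one of these symbols. Each gene had 1 probe, so the family makes up 5 of 34912 gene names and 5 of 45598 rat probes, with 32 of the 58717 spots that carry rat probes on an array. The family was selected on a contrast already known, the irradiated minus non-irradiated log2 differences of these arrays, and the values of its members between irradiated and non-irradiated cells are therefore given as a description, with no test.

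The study asked how low-level irradiation with an Er:YAG laser, which emits in the mid-infrared, alters gene expression in bone-forming cells. Cells came from the later fractions of an enzymatic digestion of calvariae of Wistar rats aged 3 to 5 days, which give a primary and mixed culture rather than a line, and were grown in 35-mm dishes. The irradiated group (4 arrays) received 3.3 J/cm2 over 60 s, the non-irradiated group (4 arrays) received no laser light, and both were collected at 6 h. Replicate numbers 1 to 4 occur in both groups, and the deposited data give both arrays of a number the same rat number, which was taken here to mean a shared source of cells. The labels describe a growth medium and an osteoinduction medium without saying which one these cultures were in. Medium was taken off the dishes for irradiation, and whether it was also taken off the non-irradiated dishes is not given in the sources used here. Each culture gave 1 array, for which 200 ng of total RNA was labeled in 1 color (Cy3).

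CCN proteins are built from modules that resemble IGF-binding proteins, von Willebrand factor type C repeats, thrombospondin type 1 repeats and a cystine-knot C-terminal module. They act mainly by binding integrins, heparan sulfate proteoglycans and growth factors outside the cell. *Ctgf* (now *Ccn2*) and *Cyr61* (now *Ccn1*) are serum-inducible genes and standard targets of YAP/TAZ with TEAD, and *Ctgf* is also a target of TGF-β. *Wisp1* (now *Ccn4*) and *Wisp2* (now *Ccn5*) were named as Wnt1-inducible genes, and the Wisp2 protein stands apart in lacking the C-terminal module. *Nov* (now *Ccn3*) is known in bone mainly as an inhibitor of osteoblast differentiation. In bone, several of these proteins are made by osteoblasts and their precursors during growth and fracture repair.

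Each gene was read through a single probe of 60 bases, and a probe reports only transcripts that contain its sequence. The middle 30 bases of each probe (bases 16 to 45) are shown here because every value of a member rests on this one stretch.
Wisp2: aacatgaagagatgaatcacactgtcctta
Wisp1: gttctaggtgaggaaaatacttgcaccatt
Ctgf: tggcaagtgaatttgccggtaacaagccag
Cyr61: ggatggggaaatgtaatactggaataattt
Nov: atgtgtcacatcacactcattttctgtaca
The array's own annotation places the probes on the rat genome build rn4. The *Wisp2* probe lies at chr3:154760083-154760142 on the + strand. The *Wisp1* probe lies at chr7:104291538-104291597 on the + strand, and the *Nov* probe lies on the same chromosome and strand at chr7:91169611-91169670. The *Ctgf* probe lies at chr1:21327574-21327633 on the - strand and the *Cyr61* probe at chr2:243824364-243824423 on the - strand. No annotation of rn4 was at hand, so the exon or untranslated region of each probe is not given. *Ctgf*, *Cyr61* and *Nov* were spotted 10 times on each array, and *Wisp1* and *Wisp2* were spotted 1 time.

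An array had 26543 to 30490 probes well above background, the median processed signal lay between 56.2 and 84.8, and 0 spots were saturated. The osteoblast markers *Runx2*, *Sp7*, *Alpl*, *Bglap*, *Ibsp* and *Col1a1* were well above background on all 8 arrays, and 12 of 13 markers of the list could be tested, *Phex* being above background on 2 arrays only. Markers of other cells were also present. They included 6 of 6 cartilage markers, 5 of 6 muscle markers, 6 of 9 macrophage markers, 4 of 6 endothelial markers and 2 of 5 adipocyte markers, whereas *Emcn*, *Tie1* and *Plin1* were above background on 0 arrays and *Ptprc* on 1. The summed level of the cartilage markers set replicate 1 apart, at 12.83 and 12.86 on the log2 scale in its non-irradiated and irradiated array against 16.35 to 17.48 on the other 6. All 8 arrays lay on 1 slide read in 1 scan, with non-irradiated arrays in its odd and irradiated arrays in its even columns, so slide column and irradiation cannot be told apart.

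All 5 CCN probes were well above background on 8 of 8 arrays and were among the 26399 probes tested. None of the 5 was called by limma with Benjamini-Hochberg adjustment at an adjusted p below 0.1, and neither was any other probe (0.0% of those tested, smallest adjusted p = 1.00). At an unadjusted p below 0.05, 1 member passed, *Wisp2*, where 2.54% of all probes did (1.42% higher and 1.12% lower in irradiated cells). This rested on the pairing, since the standard error of *Wisp2* was 0.11 with the replicate block and 0.20 without it, where 0 members passed, and 0 members passed without replicate 1, 3 or 4. At an unadjusted p below 0.01, 0 members passed, against 0.402% of all probes. Since the members were chosen with this contrast known, nothing is read from these counts. On average 4 members were lower and 1 was higher in irradiated cells, with a median log2 difference of -0.07 over the 5 members, beside a median of -0.0034 over all probes tested.

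*Wisp2* was the member whose 4 pairs differed alike. Its log2 signal on the non-irradiated arrays was 11.80, 11.97, 11.70 and 11.27 in replicates 1 to 4. On the irradiated arrays it was 11.48, 11.59, 11.42 and 10.98. Each irradiated array thus lay below the non-irradiated array of its own number, while the groups overlapped, because the non-irradiated array of replicate 4 was lower than 3 of the 4 irradiated arrays. The group means were 11.68 ± 0.30 (SD, n = 4) and 11.37 ± 0.27 (SD, n = 4), a log2 difference of -0.32 (standard error 0.11), or a change of -19.6% in signal. In a bulk culture, fewer cells of a type and less RNA per cell cannot be told apart in such a value.

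The 4 pair differences of *Wisp2* were -0.32, -0.37, -0.28 and -0.29. Their SD was 0.043 on the log2 scale, which placed the probe at percentile 0.743 of all probes for this spread, and 1.12% of all probes had an SD below 0.05. The differences between the replicate numbers were larger. The mean of the pair was 11.63, 11.78, 11.56 and 11.13 in replicates 1 to 4, an SD of 0.28 and a 1.57-fold range from the lowest to the highest pair. The SD of the pair means was therefore 6.52 times the SD of the pair differences. Lower signal in 4 of 4 pairs was seen for 4.0% of all probes, and the same sign in either direction for 7.57%. The difference stayed between -0.33 and -0.30 when any replicate was left out. *Wisp2* was read from 1 spot per array, so the error of the spot itself was not measured for this gene. For *Ctgf*, *Cyr61* and *Nov*, single spots on an array had a median SD of 0.047, 0.055 and 0.063. The 0.043 of *Wisp2* lies below these, so the closeness of its pair differences cannot be read as the precision of the measurement.

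*Wisp1*, a secreted product linked to osteoblast differentiation, varied both between replicates and within them. Its log2 signal on the non-irradiated arrays was 14.37, 13.29, 13.10 and 13.56 in replicates 1 to 4. On the irradiated arrays it was 13.95, 14.05, 13.11 and 13.45. High values were thus found on both arrays of replicate 1 and on the irradiated array of replicate 2, and the groups overlapped. The pair differences were -0.43, 0.76, 0.0051 and -0.11, with an SD of 0.50, and their mean was 0.06 (standard error 0.21). The sign of the mean rested on replicate 2: without it the difference was -0.18, and without replicate 1 it was 0.22. The pair means ranged 2.08-fold, from 13.10 in replicate 3 to 14.16 in replicate 1, and the SD of the pair means (0.44) stood at percentile 80.7 of all probes. Over the 4 replicates *Wisp1* had the largest SD of the members both for the pair means and for the pair differences. Without replicate 1 its SD of pair means was 0.29, below those of *Nov* (0.35) and *Wisp2* (0.33), and without replicate 2 its SD of pair differences was 0.22, below that of *Nov* (0.23).

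The summed level of the endothelial markers, in which *Kdr* weighs most on these arrays, was high on the same 3 arrays as *Wisp1*. On the log2 scale it was 10.33, 9.56, 9.01 and 8.67 on the non-irradiated and 10.07, 10.39, 8.92 and 8.77 on the irradiated arrays of replicates 1 to 4, with 4 of 6 markers tested and the defining markers *Emcn* and *Tie1* above background on 0 arrays. Within replicate 2 it was 0.82 higher on the irradiated array. *Kdr*, a VEGF receptor gene of endothelium that was picked from this list after its values were seen, was 8.83 on the non-irradiated and 9.79 on the irradiated array of replicate 2. The other tested markers did not set the 3 arrays apart. *Cdh5* was 7.77 on irradiated replicate 1 but 7.97 on non-irradiated replicate 3. On irradiated replicate 2 *Tek* was 6.29 and *Pecam1* 4.49, below their 6.55 and 4.72 on non-irradiated replicate 4. The summed level of the osteoblast markers was 18.28 and 18.10 on the non-irradiated and irradiated array of replicate 2. *Col1a1*, which weighs most in it, was 18.12 and 17.91 there. The part that the makeup of the cultures has in the *Wisp1* values was not tested.

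*Ctgf*, which promotes matrix production and binds TGF-β and BMP ligands, differed within replicates in both directions. Its log2 signal was 15.77, 16.33, 16.32 and 15.95 on the non-irradiated arrays of replicates 1 to 4. On the irradiated arrays it was 16.00, 15.75, 16.21 and 16.12. The irradiated array was higher in replicates 1 and 4 and lower in replicates 2 and 3, and the groups overlapped. The means were 16.09 ± 0.27 (SD, n = 4) and 16.02 ± 0.20 (SD, n = 4), a log2 difference of -0.07 (standard error 0.17). Without replicate 2, where the difference was -0.57, the mean difference was 0.10. The pair means of *Ctgf* had a 1.30-fold range and an SD of 0.16, at percentile 24.3 of all probes. This was the smallest SD of the 5 members over the 4 replicates, but without replicate 4 it was 0.19, above those of *Nov* (0.068) and *Wisp2* (0.11). The pair differences of *Ctgf* had the larger SD, 0.37.

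*Cyr61*, an integrin ligand involved in adhesion and vessel growth, separated the replicates more than the groups. Its log2 signal was 16.25, 15.56, 15.48 and 15.26 on the non-irradiated arrays of replicates 1 to 4. On the irradiated arrays it was 15.91, 15.79, 15.33 and 15.31. Both arrays of replicate 1 were the highest of their group, those of replicate 4 were the lowest, and the groups overlapped. The log2 difference was -0.05 (standard error 0.13), with pair differences of -0.33, 0.22, -0.14 and 0.043, and it was 0.04 without replicate 1. The pair means ranged 1.73-fold, and their SD fell from 0.35 to 0.20 without replicate 1. The arrays of replicate 1 had the low cartilage markers and also the highest summed muscle markers, at 12.6 and 12.3 against 10.7 to 11.7 elsewhere. The part that the makeup of the cultures has in the *Cyr61* values was not tested.

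*Nov* was low in both arrays of replicate 4. Its log2 signal was 10.62, 10.45, 10.53 and 9.84 on the non-irradiated arrays of replicates 1 to 4. On the irradiated arrays it was 10.27, 10.64, 10.30 and 9.95. The groups overlapped, and 2 pairs were lower and 2 higher after irradiation. The log2 difference was -0.07 (standard error 0.14), with pair differences of -0.35, 0.19, -0.23 and 0.10, and it was 0.02 without replicate 1. The pair means ranged 1.57-fold, and without replicate 4 their SD fell from 0.29 to 0.068. Replicate 4 was the lowest pair of *Wisp2* as well, where the SD of the pair means fell from 0.28 to 0.11 without it. The summed level of the osteoblast markers in replicate 4 was 18.44 on the non-irradiated and 18.36 on the irradiated array, against 18.10 to 18.38 on the other 6 arrays.

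**Figure D1:**
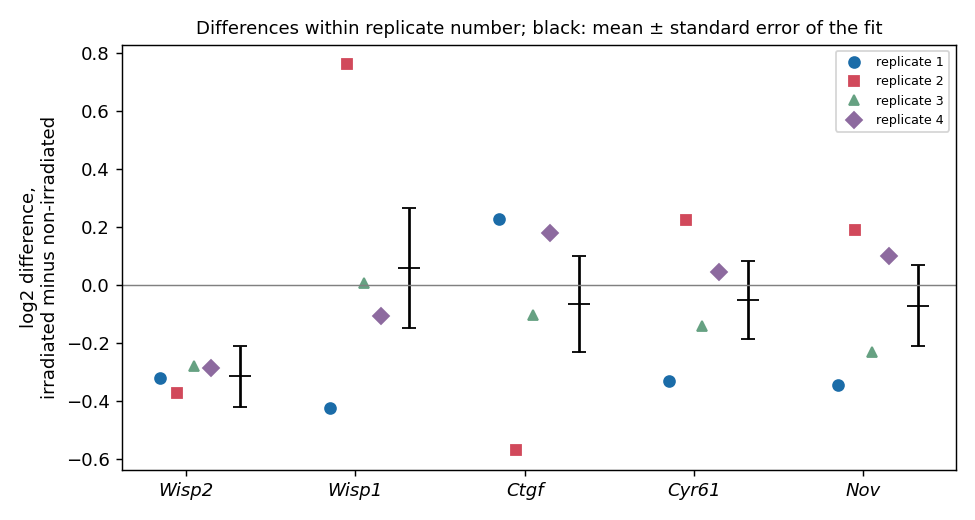
Log2 difference, irradiated minus non-irradiated (vertical axis), within each of the 4 replicate numbers for the 5 CCN genes; colored symbols are the pairs, and black marks show the mean with the standard error of the fit. The *Wisp2* pairs lie between -0.37 and -0.28, and the pairs of the other 4 genes lie on both sides of 0.

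The repeated spots of *Ctgf*, *Cyr61* and *Nov* show how far these pair differences exceed the error within an array. The SD between the spots of a probe on an array was 0.034 to 0.073 for *Ctgf*, 0.043 to 0.067 for *Cyr61* and 0.049 to 0.10 for *Nov*, from 9 or 10 spots. The difference of *Ctgf* in replicate 2 was 21.4 times its standard error from spots (0.027), and that of *Nov* in replicate 1 was 11.6 times its standard error (0.030). The smallest ratio was that of *Cyr61* in replicate 4, where a difference of 0.043 had a standard error of 0.029. For these 3 genes the opposite signs between pairs were thus mostly larger than the spot error, which covers the array surface but not the culture, the RNA or the labeling.

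**Figure D2:**
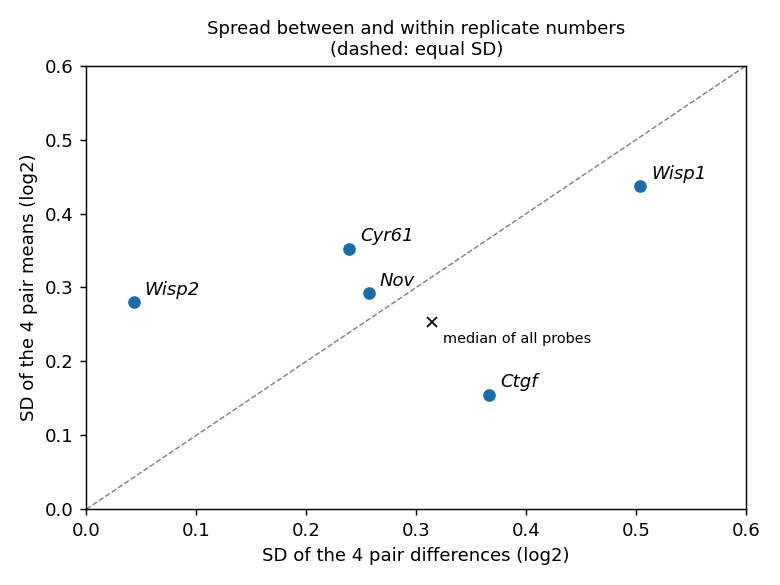
SD of the 4 pair means (vertical axis, log2), the spread between replicate numbers, against the SD of the 4 pair differences (horizontal axis, log2), the spread of the irradiated minus non-irradiated difference, for the 5 CCN genes; the cross is the pair of medians over all probes, and the dashed line marks equal SDs. *Wisp2* lies far to the left at 0.043, and *Wisp1* and *Ctgf* lie below the line. The line is not a neutral one, because a difference between arrays varies more than their mean.

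Across the family, 3 of 5 members (*Wisp2*, *Cyr61* and *Nov*) had a larger SD of the pair means than of the pair differences. The medians over all probes were 0.25 for the pair means and 0.31 for the pair differences. These SDs are on unlike scales, because a difference between arrays varies more than their mean. The count therefore does not show whether variation between or within pairs was larger. The count was 5 without replicate 2 and 2 without replicate 4, when *Nov* had an SD of 0.068 for pair means and 0.28 for pair differences. For 0 members did the groups separate without overlap, as they did for 0.579% of all probes. The profiles of the members also differed from each other. After each probe was centered on its own mean, the root mean square difference over the 8 arrays was smallest between *Wisp2* and *Nov*, at 0.18, where *Nov* ranked 76 of 20526 genes in likeness to *Wisp2* and *Wisp2* ranked 965 in likeness to *Nov*. *Cyr61* ranked 868 in likeness to *Wisp1* and *Wisp1* ranked 3464 in likeness to *Cyr61*, at 0.24. *Wisp1* and *Ctgf* differed most, at 0.63, which is more than the root mean square of either gene about its own mean (0.44 and 0.21). These measures describe 8 arrays that share a rat number in pairs.

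The genes most like each member were found by the same measure. *Wisp2* was closest to *Kcnj9*, a potassium channel gene, at 0.094, and then to 3 probes without a gene symbol, A_44_P1156082, A_44_P363913 and A_44_P306863, at 0.11, 0.11 and 0.12, and to *Swi5* at 0.12. This set changed with the arrays used, as 0 of the 5 remained among the nearest 5 without replicate 2 or without replicate 4. *Wisp1* was closest to *Nin* and *Rybp*, both at 0.06, and *Ctgf* to *Commd7* at 0.065 and *Eif3f* at 0.066. *Cyr61* was closest to *Mllt11* at 0.044 and *Tmem123* at 0.046, and *Nov* to *Sh3kbp1* at 0.040 and A_44_P1139797, a probe without a gene symbol, at 0.042. The sixth gene of the family, *Wisp3*, was well above background on 1 of 8 arrays and was not tested.

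Receptors and binding partners of CCN proteins were present in full, with 24 of 24 genes tested, and 0 were called. Of these, 13 were higher and 11 lower in irradiated cells on average, with a median log2 difference of 0.02 beside 0.002 over all 20639 genes tested. *Bmp2*, an osteogenic ligand gene, was higher in 4 of 4 pairs, as were 3.57% of all probes, with a difference of 0.24 (standard error 0.15) that did not pass an unadjusted p below 0.05. The integrin genes *Itgav*, *Itgb5* and *Itga6* differed by -0.04 (standard error 0.14), -0.03 (standard error 0.26) and -0.11 (standard error 0.14), and the other integrin genes of the list, *Itgb1*, *Itgb3* and *Itga5*, by 0.10 (standard error 0.11), -0.22 (standard error 0.21) and 0.17 (standard error 0.21).

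The other targets of YAP/TAZ with TEAD give the context of *Ctgf* and *Cyr61*. Of 20 genes 18 were tested, with 7 higher, 11 lower, 0 called and 0 at an unadjusted p below 0.05, and their median difference was -0.006. *F3*, the tissue factor gene, was lower in 4 of 4 pairs with a difference of -0.23 (standard error 0.12), as was *Rbms3* with -0.16 (standard error 0.11). *Axl*, a receptor tyrosine kinase gene, differed by -0.13 (standard error 0.20). *Ankrd1* was above background on 5 arrays and was not tested. Immediate-early and SRF/MRTF genes, which serum and mechanical load induce, were tested in 17 of 17 cases with 7 higher, 10 lower, 0 called and 0 at an unadjusted p below 0.05, and the median was -0.04. *Fos* differed by -0.11 (standard error 0.11), lower in 4 of 4 pairs, *Srf* by -0.08 (standard error 0.11) and *Egr1* by 0.07 (standard error 0.25).

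TGF-β targets, the group to which *Ctgf* also belongs, were tested in 12 of 12 cases. They divided into 6 higher and 6 lower with 0 called, 0 at an unadjusted p below 0.05 and a median of -0.005. *Pmepa1*, a feedback inhibitor of the pathway, differed by 0.14 (standard error 0.11) and *Ski*, a SMAD co-repressor gene, by -0.12 (standard error 0.11).

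Of 16 Wnt targets, the group for which *Wisp1* and *Wisp2* are named, 14 were tested, and 10 were higher and 4 lower with a median of 0.03 and 0 called. Over all genes tested, 50.7% were higher. At an unadjusted p below 0.05, 1 Wnt target was higher, where 2.38% of all genes tested passed in either direction. This was *Nkd2*, an inhibitor of Wnt signaling, with a difference of 0.39 (standard error 0.11), and it was the only gene of the list with the same sign in 4 of 4 pairs. *Nkd2* was 7.32, 6.78, 7.02 and 7.76 on the non-irradiated and 7.89, 7.09, 7.41 and 8.05 on the irradiated arrays of replicates 1 to 4. It was higher within each pair, as were 3.57% of all probes, while the groups overlapped. Its direction was the reverse of that of *Wisp2*, and nothing is read from this for 1 gene of the list. *Axin2*, a general target of the pathway, differed by 0.04 (standard error 0.15).

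Other matricellular genes, which encode thrombospondins, SPARC, tenascins, periostin and related proteins, were tested in 12 of 12 cases. They divided into 5 higher and 7 lower with 0 called and 0 at an unadjusted p below 0.05. Their median was -0.02, and without replicate 1 it was -0.10. *Fbln5*, a fibulin gene of elastic fibers, differed by -0.18 (standard error 0.12) and *Thbs1*, the gene of the TGF-β activator thrombospondin 1, by -0.17 (standard error 0.12), both lower in 4 of 4 pairs. Their standard errors were of a size like that of *Wisp2*. The fit draws the variance of each probe towards a level common to all probes, so this does not show a like spread between pairs. The differences were smaller than that of *Wisp2*. Nothing is read from this, as the family of *Wisp2* was chosen with this contrast known.

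**Figure D3:**
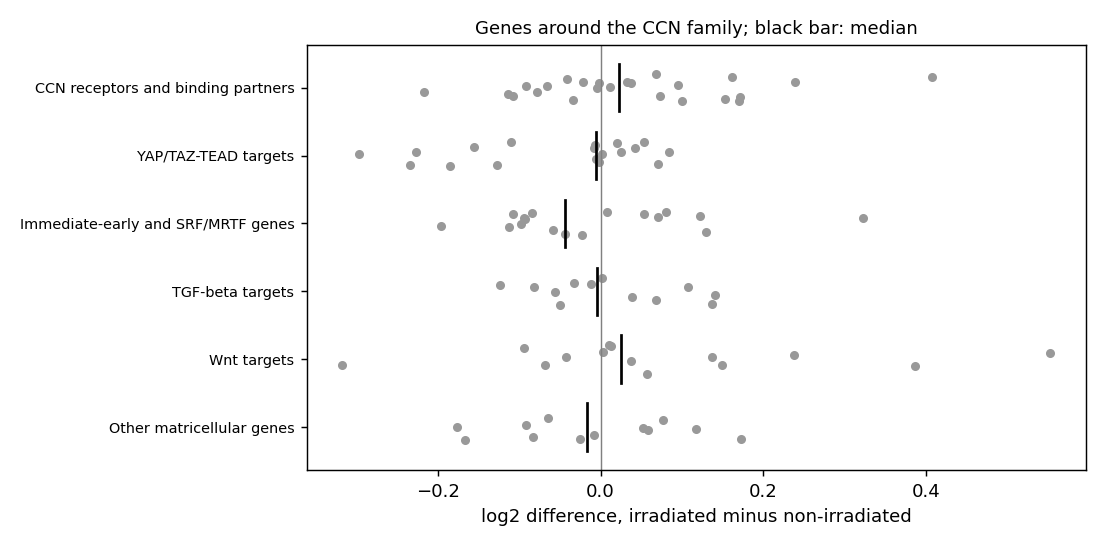
Log2 difference, irradiated minus non-irradiated (horizontal axis), of each tested gene in 6 lists of genes around the CCN family (rows); black bars are medians. The medians lie between -0.04 and 0.03, and each list has genes on both sides of 0.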

How the data were processed

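Total RNA of 8 cultures was measured on 1-color arrays. The intensities that the authors deposited are per spot, from Agilent Feature Extraction 11.0.1.1 (per the submitters' processing notes), corrected for background but not normalized between arrays. The authors also deposited quantile normalized log2 values, used here as an alternative. Groups were taken from the labels. The log2 of the processed signal was quantile normalized over rat spots, outlying spots (446 to 690 per array) were left out, and spots of a probe were averaged. A probe entered the fit when over 50% of its spots were well above background on each of the 4 arrays of a group. The fit used limma 3.58.1 (R 4.3.3), blocked by replicate number, with two-sided p-values adjusted by Benjamini-Hochberg. Its standard errors are moderated, as the variance of each probe is drawn towards a level common to all probes. Of 26404 such probes, 26399 could be fitted. The fit was tested on simulated data in which changes were larger than those of the CCN members and every pair shared its source. That test does not show whether differences of the size seen for the members would be found.

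The pairing comes from the rat number that both arrays of a replicate number carry. Deviations from the group means correlated within numbers 1 to 4 at 0.61, 0.054, 0.57 and 0.75 across 26250 probes, which are not independent replicates, and irradiated replicate 2 correlated at 0.44 with non-irradiated replicate 1. The number of arrays limits the precision.

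The members and lists were chosen with earlier results of these data known. Genes were represented by the probe with the highest mean signal. Named genes are the members, in each list those with the largest difference among genes with the same sign in 4 of 4 pairs and a fixed set of pathway genes, and the nearest genes by root mean square difference. The alternatives were other scaling, background correction and filters, the deposited values, outlying spots kept, a replicate left out, no block, a random block and averaged probes. Protein features were not analysed here, and some listed genes are not reported here.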

Additional observations from a re-analysis of the deposited data

How the results depend on the processing

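With each alternative, 0 probes were called at an adjusted p below 0.1, also with no replicate block (0 probes), and the smallest adjusted p (limma with Benjamini-Hochberg adjustment) ranged from 0.21 with a random block to 1.00. The count at an unadjusted p below 0.01 was 106 and ranged from 23 with normexp background correction to 304 with no filter, with 26 on the mean signal, 33 on the deposited values, 58 with all 8 arrays above background, 34 with no replicate block and 48 to 237 when a replicate was left out. At an unadjusted p below 0.05 the count of 670 ranged from 246 with no replicate block to 1658 with no filter, with 252 for normexp, 254 for the mean signal, 292 for the deposited values and 392 to 1410 when a replicate was left out. The difference of *Wisp2* lay between -0.33 and -0.30 under the other scaling, the background corrections, the deposited values and with a replicate left out. The block, the filters and the outlying spots cannot move it, as the arrays are balanced and its spots passed, but no replicate block raised its standard error from 0.11 to 0.20. Leaving out a replicate moved the difference of *Wisp1* from -0.18 to 0.22, of *Ctgf* from -0.17 to 0.10, of *Cyr61* from -0.14 to 0.04 and of *Nov* from -0.16 to 0.02. It moved the median of the other matricellular genes from -0.10 to 0.04, of Wnt targets from -0.02 to 0.12, of TGF-β targets from -0.09 to 0.01, of YAP/TAZ-TEAD targets from -0.07 to -0.01, of immediate-early and SRF/MRTF genes from -0.07 to -0.004 and of receptors and binding partners from -0.01 to 0.06. The SD of the pair differences fell from 0.50 to 0.22 for *Wisp1* and from 0.37 to 0.18 for *Ctgf* without replicate 2, and that of *Wisp2* from 0.043 to 0.022. Without replicate 3 the SD of the pair means of *Ctgf* fell from 0.16 to 0.086. The cause of these changes was not tested. The scalings left the median difference of all probes between -0.0034 and 0.0028. Averaging the probes of a gene applied to the lists only, as each member has 1 probe, and a slide block could not be fitted to 1 slide. With 4 arrays in a group and 1 probe for each gene, differences of the size seen for *Ctgf*, *Cyr61* and *Nov* lay within their standard errors.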
